A study of Homo sapiens with 15 samples.

Results

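Transcripts of 10 human genes that drive the passage of a cell from G1 into S phase were followed through 5 groups of cultured cells. They are the D cyclins CCND1, CCND2 and CCND3, the E cyclins CCNE1 and CCNE2, the kinases CDK2, CDK4 and CDK6, the phosphatase CDC25A and the transcription factor E2F1. They were picked out by gene symbol, with earlier results of these data known, and make up 10 of the 16109 genes listed in the series. All 10 were listed for P493-6 cells and 9 for PC3 cells. CCND2 had no entry for PC3, where each listed gene exceeded 1 CPM in at least 2 of 6 libraries, and it was not analysed there.

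The study asked whether MYCi975, a small molecule inhibitor of the transcription factor MYC, acts on the genes that MYC regulates. PC3, a prostate cancer line with high MYC of its own, was given DMSO or 8 µM MYCi975 in DMSO. P493-6, a human B cell line that overexpresses MYC from an inducible system and that the labels call Burkitt lymphoma, was given DMSO, MYCi975 at 6 µM, or tetracycline at 0.1 µg/ml in water, which shuts the introduced MYC off. Treatment lasted 24 h in every group, all cells grew in RPMI with serum, and each group had 3 libraries. The doses of MYCi975 differed between the lines, and the tetracycline group was compared with DMSO although tetracycline was dissolved in water. One field of the labels lists the controls as untreated, and the treatment protocol says that they got DMSO. No label says whether replicate libraries stem from separate cultures, so p-values measure the spread between libraries, which may be technical.

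Expression is given in CPM (reads of a gene once its library is scaled to 1000000 reads), from libraries of 8162582 to 15926008 reads. CPM is a share of a library, so a change common to all RNA of a cell does not show in it, and fewer cells with a transcript cannot be told apart from less of it per cell. MYC itself stood at 301.1, 300.4 and 309.3 CPM in PC3 with DMSO and at 378.1, 359.4 and 385.9 CPM with MYCi975. In P493-6 its mean was 4728 CPM with DMSO, 5118 CPM with MYCi975 and 149.0 CPM with tetracycline (SD 54.8, 29.4 and 3.75, n = 3 each). The MYC transcript was thus lower in every tetracycline library and not lower in any MYCi975 library. All 6 epithelial markers were above 1 CPM in every PC3 library and all 7 B cell markers in every P493-6 library. Markers of the other type were also above 1 CPM: CD74 in PC3, and EPCAM in all P493-6 libraries but tetracycline replicate 3. KRT19, an epithelial marker, reached 1.23 CPM in P493-6 DMSO replicate 2 and 1.01 CPM in tetracycline replicate 3. EPCAM, an epithelial marker, ranged from 10.7 to 11.9 CPM in P493-6 with DMSO and from 13.3 to 14.3 CPM with MYCi975. With tetracycline EPCAM ranged from 0.808 to 2.64 CPM, and in PC3 with DMSO from 13.5 to 15.9 CPM. CD74, a B cell marker, ranged from 1.75 to 4.27 CPM in PC3 with DMSO and from 1.25 to 2.05 CPM with MYCi975. In P493-6 the summed B cell markers ranged from 3898 to 4124 CPM with DMSO, from 4408 to 4723 CPM with MYCi975 and from 11501 to 11895 CPM with tetracycline. The tetracycline libraries were also shallower, at 8162582 to 9895173 reads against 9774101 to 12212555 reads with DMSO. Whether either shift plays a part in the tetracycline results below was not tested.

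In G1, growth signals raise D cyclins, which bind and activate CDK4 and CDK6. These kinases phosphorylate the retinoblastoma protein RB, which then releases E2F factors such as E2F1, and E2F factors switch on the E cyclins and the genes of DNA replication. Cyclin E with CDK2 phosphorylates RB further, and CDC25A removes inhibitory phosphates from CDK2. MYC, which binds E-box sequences as a partner of MAX, is known to stimulate several of these genes, among them CDK4.

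Promoters are shown for 3 genes, CDK4, CDC25A and E2F1, because motifs for MYC or E2F were found before their starts and their transcripts fell when MYC was shut off. The sequences are RefSeq's (GRCh38.p14), each the 250 bases before the transcription start, read 5′ to 3′ along the gene. Capitals mark the canonical E-box CACGTG, or an E2F motif in one of the forms TTTCCCGC, TTTCGCGC, TTTGCCGC or TTTGGCGC, on either strand. The 2 kinds of motif did not overlap in these windows. The CDK4 window lies at chr12:57752311-57752560, the CDC25A window at chr3:48188418-48188667 and the E2F1 window at chr20:33686386-33686635, all on the minus strand.
CDK4: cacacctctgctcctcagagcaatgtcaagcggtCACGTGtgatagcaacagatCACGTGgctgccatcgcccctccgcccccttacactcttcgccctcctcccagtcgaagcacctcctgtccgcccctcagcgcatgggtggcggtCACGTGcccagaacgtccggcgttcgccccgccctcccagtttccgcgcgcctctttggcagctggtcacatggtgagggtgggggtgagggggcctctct
CDC25A: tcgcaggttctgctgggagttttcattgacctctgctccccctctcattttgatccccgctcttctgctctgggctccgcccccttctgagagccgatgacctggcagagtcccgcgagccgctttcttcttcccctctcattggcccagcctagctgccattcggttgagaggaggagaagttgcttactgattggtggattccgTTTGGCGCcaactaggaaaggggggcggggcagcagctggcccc
E2F1: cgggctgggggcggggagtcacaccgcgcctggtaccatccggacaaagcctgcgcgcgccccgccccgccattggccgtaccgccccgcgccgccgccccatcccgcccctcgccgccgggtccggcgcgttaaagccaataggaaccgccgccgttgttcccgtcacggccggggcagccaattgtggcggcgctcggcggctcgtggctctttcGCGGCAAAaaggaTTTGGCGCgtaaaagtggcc

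The CDK4 window held 3 E-boxes, beginning 216, 196 and 101 bases before the start, and no E2F motif of these forms. The CDC25A window held 1 E2F motif, beginning 44 bases before the start. In the E2F1 window 2 E2F motifs began 33 and 20 bases before the start, the first read on the opposite strand. Over all 35116 RefSeq promoters, taken as 300 bases (250 before and 50 after the start), 7.26% held an E-box and 0.094% held 3 or more. An E2F motif of these forms was in 3.31%, and 2 or more were in 0.145%. RefSeq windows were found for 6 of the 10 members, 9 promoters in all. Those of CCND3 and CCNE1 held neither motif, and 1 of the 2 CDK6 promoters held an E-box 30 bases after its start. CCND1, CCND2, CCNE2 and CDK2 had no entry. These matches describe letters in a window, and binding was not measured.

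MYCi975 lowered most of the 9 members listed in PC3: 7 fell and 1, CDK6, rose. CCNE2, CDC25A, CCND3 and CDK2 fell the most. Of all 13751 genes tested in PC3, 30.1% fell and 29% rose. The groups of DMSO and MYCi975 libraries did not overlap for 9 of 9 members, against 61.9% of all genes. The median log2 fold change of the members was -0.44, and that of all genes was 0.00. Calls throughout are an adjusted p below 0.05 (limma, Benjamini-Hochberg over all genes, two-sided) on log2(CPM + 1). Log2 and fold changes of genes are on this scale too. It gives smaller changes than CPM itself, most of all for genes near 1 CPM.

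In P493-6, MYCi975 gave smaller estimates than in PC3 for each member listed in both lines except CCNE1 (log2 -0.37 against -0.20). For CCNE1, CCND1 and CDK4 no difference between the lines was detected, as given below. Of the 10 members, 5 were lower, 1 was higher, again CDK6, and 4 did not pass. Of all 12998 genes, 18% fell and 10.6% rose. The groups did not overlap for 5 members, against 40% of all genes. The members' median was -0.28 and that of all genes -0.04. The split of all genes depended on scaling: 1375 rose and 2338 fell with CPM alone, and 1819 rose and 1691 fell with TMM factors. Only 3 members were called lower without DMSO replicate 2 or without MYCi975 replicate 1, CCNE1 and CDK2 being the calls lost.

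Shutting MYC off with tetracycline lowered 7 of the 10 members and raised 1, CCND3. CDC25A, CDK4 and CDK6 fell the most, followed by E2F1. Among all 13703 genes, 41.9% fell and 36.2% rose (4957 higher and 5745 lower, or 5389 higher and 5357 lower with TMM factors). With TMM factors 5 members were called lower. The groups did not overlap for 7 members, against 78.4% of all genes. The members' median log2 fold change was -0.33, and the median of all genes was -0.05. The 2 comparisons in P493-6 share their 3 DMSO libraries, so their values stand side by side and no correlation between them is given.

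**Figure D1:**
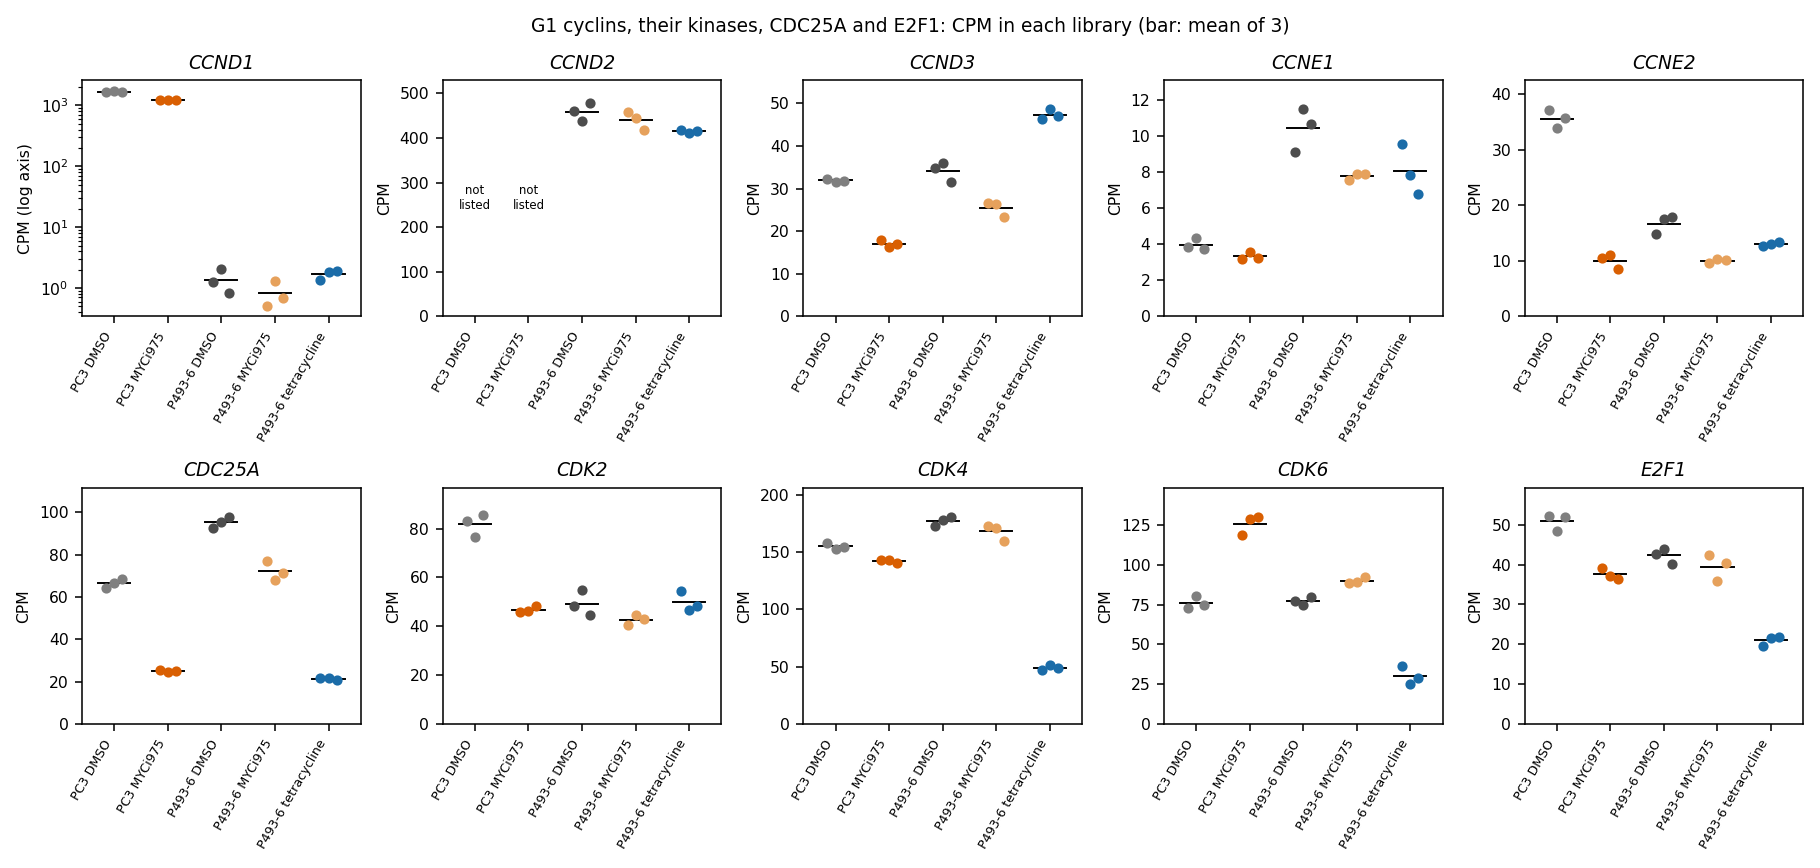
CPM of each member (vertical axes, logarithmic for CCND1 and linear from 0 for the others) in every library of the 5 groups, with a bar at the mean of 3. CDK4, CDK6, CDC25A and E2F1 were lowest in P493-6 with tetracycline among P493-6 groups, while CCND3 was highest there, at 46.4 to 48.8 CPM.

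CCND1 was abundant in PC3 and close to 1 CPM in P493-6. CCND1 (chr11:69641087-69654474, plus strand, hg38 with GENCODE v29) had 1629, 1724 and 1644 CPM in PC3 with DMSO and 1211, 1234 and 1226 CPM with MYCi975. Every MYCi975 library was below every DMSO library, and the log2 fold change was -0.44 (SE 0.024, adjusted p = 1.61e-30, limma). In P493-6 the same gene gave 1.26, 2.05 and 0.818 CPM with DMSO. It gave 0.513, 1.28 and 0.699 CPM with MYCi975 and 1.38, 1.84 and 1.92 CPM with tetracycline. These values rest on 6 to 25 reads per library, the P493-6 groups overlapped with DMSO in both comparisons, and neither comparison passed (adjusted p = 0.239 and 0.332, limma).

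CCND2 (chr12:4273772-4305350, plus strand) was the abundant D cyclin of P493-6. Its levels were 459.2, 437.2 and 477.7 CPM with DMSO, 456.9, 443.8 and 418.5 CPM with MYCi975, and 417.7, 411.3 and 414.4 CPM with tetracycline. The tetracycline libraries lay just under all DMSO libraries, while the MYCi975 libraries overlapped with DMSO. The tetracycline fall was 1.104-fold (log2 -0.14, SE 0.040, adjusted p = 0.0014, limma), and it did not pass with TMM factors (adjusted p = 0.167) or without trend and robust variance (adjusted p = 0.0653). With MYCi975 the value was -0.06 (95% interval -0.14 to 0.02, adjusted p = 0.309, limma).

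CCND3 (chr6:41934933-42050357, minus strand) moved in opposite directions under the 2 treatments of P493-6. In PC3 it fell from 32.3, 31.6 and 31.8 CPM to 17.9, 16.4 and 17.0 CPM with MYCi975. In P493-6 it fell from 34.8, 35.9 and 31.6 CPM to 26.7, 26.5 and 23.3 CPM with MYCi975, and rose to 46.4, 48.8 and 47.0 CPM with tetracycline. No library of a treated group overlapped with its DMSO group. The log2 fold changes were -0.86 in PC3 (SE 0.075, adjusted p = 2.68e-18), -0.41 in P493-6 with MYCi975 (SE 0.081, adjusted p = 0.000105) and 0.46 with tetracycline (SE 0.074, adjusted p = 5.23e-07, limma). CCND3 was the only one of the 10 members called higher with tetracycline, where 60.8% of all genes had a larger absolute change.

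The E cyclins differed from each other in PC3. CCNE2, on chromosome 8, had 37.2, 33.9 and 35.6 CPM in PC3 with DMSO and 10.5, 11.0 and 8.55 CPM with MYCi975. On log2(CPM + 1) the fall was 3.34-fold (log2 -1.74, SE 0.085, adjusted p = 2.83e-34, limma), less than the means of 35.6 and 10.0 CPM give. It was the largest among the members in PC3, and 0.538% of all genes had a larger absolute change. CCNE1 (chr19:29811898-29824308, plus strand) had 3.83, 4.35 and 3.72 CPM with DMSO and 3.17, 3.54 and 3.25 CPM with MYCi975. Its groups did not overlap, but the difference of -0.20 (95% interval -0.49 to 0.09) did not pass (adjusted p = 0.249, limma). Without trend and robust variance the adjusted p of CCNE1 was 0.0406.

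In P493-6 both E cyclins were called lower under each treatment. With tetracycline, 72.2% of all genes had a larger absolute change than CCNE2 and 70.8% a larger one than CCNE1. CCNE2 stood at 14.7, 17.4 and 17.8 CPM with DMSO, 9.67, 10.4 and 10.1 CPM with MYCi975, and 12.7, 13.1 and 13.4 CPM with tetracycline. Its MYCi975 libraries were the lowest and its DMSO libraries the highest, with no overlap between groups. The log2 fold changes of CCNE2 were -0.67 with MYCi975 (SE 0.11, adjusted p = 3.93e-06) and -0.32 with tetracycline (SE 0.11, adjusted p = 0.00845, limma). CCNE1 stood at 9.11, 11.5 and 10.6 CPM with DMSO, 7.53, 7.90 and 7.89 CPM with MYCi975, and 9.53, 7.84 and 6.77 CPM with tetracycline. Its tetracycline group overlapped with DMSO through replicate 1.

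The log2 fold changes of CCNE1 were -0.37 (SE 0.12, adjusted p = 0.0198) with MYCi975 and -0.34 (SE 0.14, adjusted p = 0.0241) with tetracycline (limma). The CCNE1 calls rest on single libraries. The MYCi975 call was lost without DMSO replicate 2 (adjusted p = 0.117), without DMSO replicate 3 (0.0608) or without MYCi975 replicate 1 (0.0637). The tetracycline call was lost without DMSO replicate 2 (adjusted p = 0.117), DMSO replicate 3 (0.0658) or tetracycline replicate 3 (0.143), and with TMM factors (0.0752).

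Within a library, the ratio of CCNE2 to CCNE1 in CPM needs no scaling between libraries. In PC3 it was 9.70, 7.81 and 9.57 with DMSO and 3.30, 3.10 and 2.63 with MYCi975, so it dropped to 0.334 of its DMSO mean. In P493-6 it was 1.62, 1.52 and 1.67 with DMSO and 1.28, 1.31 and 1.28 with MYCi975, which is 0.805 of the DMSO mean. With tetracycline the ratio was 1.34, 1.67 and 1.99, a range that held all DMSO values. These ratios are a description with no test, and an exact permutation test of 3 against 3 libraries cannot go below p = 0.1.

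**Figure D2:**
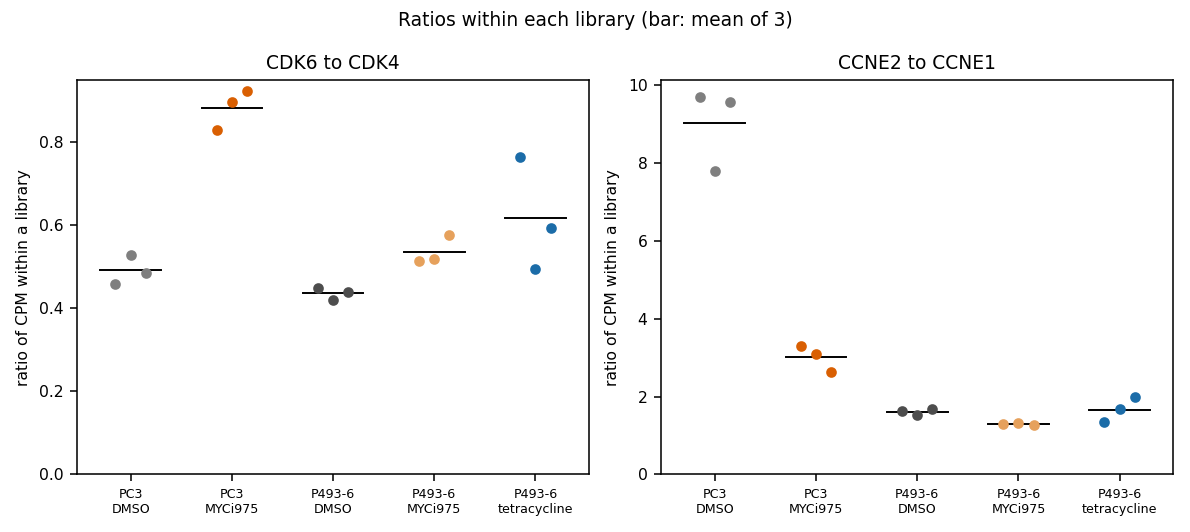
Ratio of CDK6 to CDK4 (left) and of CCNE2 to CCNE1 (right) within each library, in CPM (vertical axes from 0), for the 5 groups, with a bar at the mean of 3. In PC3 the CDK6 ratio was 0.459 to 0.529 with DMSO and 0.830 to 0.924 with MYCi975, and the CCNE2 ratio was 7.81 to 9.70 and 2.63 to 3.30.

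CDK4 and CDK6, the partners of the D cyclins, both fell with tetracycline. With MYCi975 CDK6 rose in both lines, and CDK4 fell slightly in PC3 and did not pass in P493-6. CDK4 (chr12:57747727-57756013, minus strand) had 172.6, 178.4 and 181.1 CPM in P493-6 with DMSO, 173.0, 171.6 and 160.3 CPM with MYCi975, and 47.4, 51.3 and 48.9 CPM with tetracycline. The tetracycline libraries were far below all others, and the MYCi975 libraries overlapped with DMSO. The tetracycline fall was 3.55-fold (log2 -1.83, SE 0.054, adjusted p = 1.47e-28, limma). With MYCi975 the difference in CDK4 was -0.08 (95% interval -0.17 to 0.02, adjusted p = 0.223, limma). In PC3, CDK4 had 158.5, 152.5 and 154.6 CPM with DMSO and 143.2, 143.6 and 140.7 CPM with MYCi975, a 1.09-fold fall that passed (log2 -0.12, SE 0.038, adjusted p = 0.00417, limma). A larger absolute change than that of CDK4 in PC3 was seen in 72.5% of all genes.

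CDK6 (chr7:92604921-92836594, minus strand) was the only member called higher with MYCi975. In PC3 it had 72.8, 80.7 and 75.1 CPM with DMSO and 118.9, 128.7 and 129.997 CPM with MYCi975, a 1.64-fold rise (log2 0.72, SE 0.045, adjusted p = 1.16e-26, limma). In P493-6 it had 77.5, 74.8 and 79.6 CPM with DMSO and 88.7, 89.0 and 92.4 CPM with MYCi975, a 1.16-fold rise (log2 0.22, SE 0.053, adjusted p = 0.00142, limma). No DMSO library reached the level of a MYCi975 library in either line. With tetracycline CDK6 fell to 36.3, 25.4 and 29.004 CPM, a log2 fold change of -1.34 (SE 0.087, adjusted p = 3.51e-14, limma). Replicate 1 was the highest of the tetracycline libraries, and all 3 lay below every DMSO library.

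The ratio of CDK6 to CDK4 in CPM rose in the MYCi975 libraries of both lines. In PC3 it went from 0.459, 0.529 and 0.486 to 0.830, 0.896 and 0.924, or 1.80 times the DMSO mean. In P493-6 it went from 0.449, 0.419 and 0.440 to 0.513, 0.519 and 0.576, or 1.23 times. Under tetracycline, where both kinases fell, the ratio was 0.765, 0.494 and 0.593, or 1.42 times, and its highest value came from the library in which CDK6 was highest.

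CDK2 (chr12:55966769-55972784, plus strand), the partner of the E cyclins, fell in PC3 with MYCi975, and its smaller fall in P493-6 depended on single libraries. In PC3 it dropped from 83.1, 76.7 and 85.7 CPM to 45.8, 46.3 and 48.4 CPM with MYCi975, a 1.73-fold fall (log2 -0.79, SE 0.052, adjusted p = 2.26e-25, limma). In P493-6 it had 48.1, 54.7 and 44.5 CPM with DMSO, 40.5, 44.5 and 42.9 CPM with MYCi975, and 54.3, 46.7 and 48.2 CPM with tetracycline. Both treated groups overlapped with DMSO. The MYCi975 call (log2 -0.20, SE 0.071, adjusted p = 0.0320, limma) was lost with TMM factors (adjusted p = 0.104), without trend and robust variance (0.17), and without DMSO replicate 2 (0.303), MYCi975 replicate 1 (0.145) or MYCi975 replicate 3 (0.0529). With tetracycline CDK2 differed by 0.02 (95% interval -0.13 to 0.17, adjusted p = 0.814, limma).

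CDC25A (chr3:48157146-48188402, minus strand) was lower in every treated library of both lines. In PC3 it had 64.3, 66.5 and 68.6 CPM with DMSO and 25.6, 24.4 and 24.9 CPM with MYCi975, a 2.60-fold fall (log2 -1.38, SE 0.060, adjusted p = 7.91e-38, limma). In P493-6 it had 92.7, 95.3 and 97.6 CPM with DMSO, 77.0, 67.8 and 71.2 CPM with MYCi975, and 21.5, 21.4 and 20.6 CPM with tetracycline. These 3 groups were ordered with no overlap. The fall in P493-6 was 1.32-fold with MYCi975 (log2 -0.40, SE 0.055, adjusted p = 1.72e-07) and 4.34-fold with tetracycline (log2 -2.12, SE 0.069, adjusted p = 3.53e-27, limma). The tetracycline value was the largest change of any member.

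E2F1 (chr20:33675487-33686404, minus strand) fell in PC3 with MYCi975 and in P493-6 with tetracycline. In PC3 it had 52.3, 48.4 and 52.1 CPM with DMSO and 39.2, 37.1 and 36.4 CPM with MYCi975, a 1.35-fold fall (log2 -0.43, SE 0.059, adjusted p = 6.09e-10, limma). In P493-6 it had 42.7, 44.0 and 40.2 CPM with DMSO, 42.4, 35.8 and 40.3 CPM with MYCi975, and 19.5, 21.6 and 21.9 CPM with tetracycline. Only the tetracycline libraries were clear of the DMSO libraries. Their fall was 1.97-fold (log2 -0.98, SE 0.083, adjusted p = 9.88e-14, limma), and the MYCi975 difference of -0.10 (95% interval -0.24 to 0.05) did not pass (adjusted p = 0.329, limma).

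**Figure D3:**
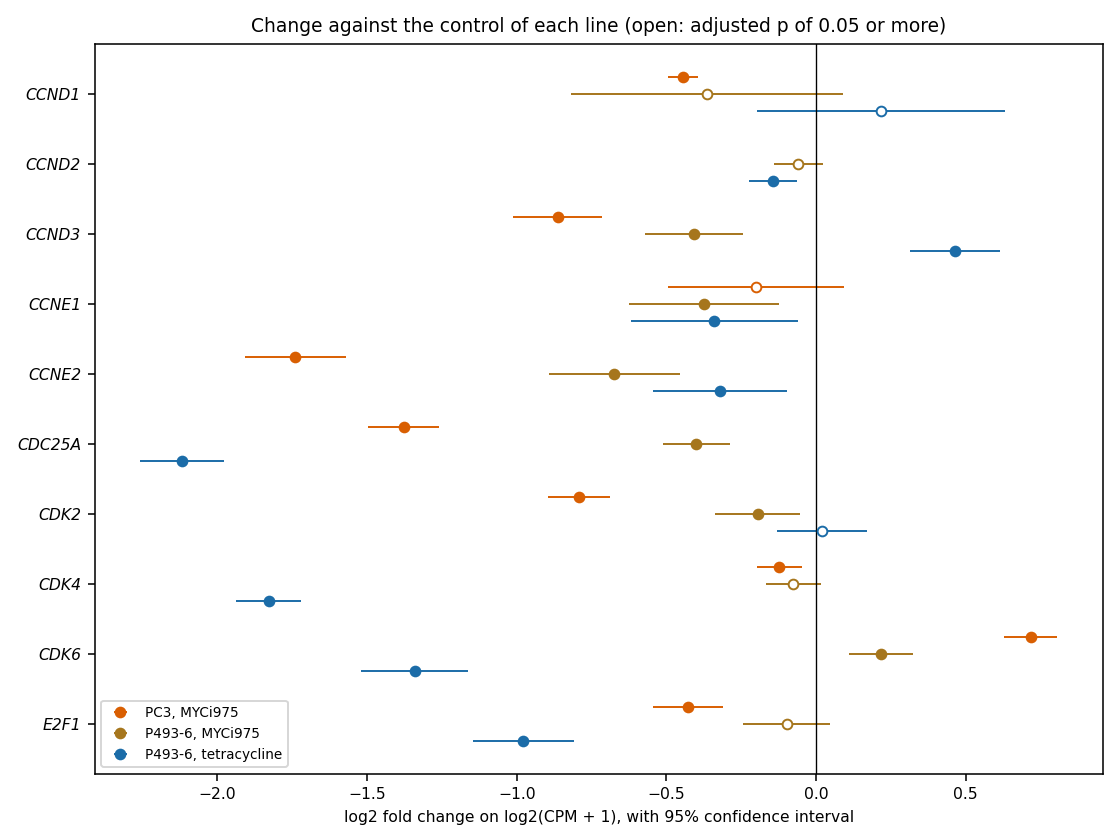
Log2 fold change against DMSO on log2(CPM + 1) (horizontal axis) with 95% intervals for each member (rows), for MYCi975 in each line and for tetracycline in P493-6. Filled points passed an adjusted p of 0.05. CCNE2 lies farthest left in PC3 (-1.74) and CDC25A in P493-6 with tetracycline (-2.12).

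The authors' deposited tables carry their own edgeR results, marked at an adjusted p below 0.01. Among the members they marked 1 higher and 7 lower in PC3, 1 higher and 3 lower in P493-6 with MYCi975, and 1 higher and 4 lower with tetracycline. For CCNE2 the authors' deposited table gave a log2 fold change of -1.82 in PC3, for CDC25A -2.09 and for CDK4 -1.77 with tetracycline. CCND2, CCNE1 and CCNE2 with tetracycline, and CCNE1 and CDK2 with MYCi975 in P493-6, were called here at 0.05 but not marked at 0.01 in the authors' deposited tables. The authors' deposited tables gave adjusted p-values below 0.05 for CCNE2 with tetracycline (0.0285) and CCNE1 with MYCi975 (0.0215).

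MYCi975 and tetracycline were next compared with each other within the 9 P493-6 libraries and the 12860 genes of both tables. CDK4, CDC25A, CDK6 and E2F1 were higher with MYCi975 than with tetracycline, and CCND3, CCND1, CCNE2 and CDK2 were lower. These 4 higher and 4 lower members of 10 stand against 42.3% of all genes higher and 33.9% lower. Over all genes these were 5438 higher and 4356 lower, a split that became 4878 higher and 4938 lower with TMM factors. Groups did not overlap for 9 members, against 76.9% of all genes. The log2 differences were 1.75 for CDK4 (SE 0.051, adjusted p = 1.02e-33), 1.72 for CDC25A (SE 0.065, adjusted p = 7.38e-29), 1.56 for CDK6 (SE 0.080, adjusted p = 9.30e-17) and 0.88 for E2F1 (SE 0.080, adjusted p = 4.72e-14, limma). In all 4 genes every MYCi975 library lay above every tetracycline library.

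In the other direction CCND3 differed by -0.87 (SE 0.078, adjusted p = 2.26e-14) and CCNE2 by -0.35 (SE 0.11, adjusted p = 0.00409, limma). CDK2 differed by -0.22 (adjusted p = 0.00746, limma), a call lost without tetracycline replicate 1 (adjusted p = 0.0813) and without trend and robust variance (0.0532). CCND1 differed by -0.58 at about 1 CPM (adjusted p = 0.0149, limma), a call lost without MYCi975 replicate 1 (adjusted p = 0.0864) or tetracycline replicate 3 (0.0537). CCNE1 differed by -0.03 (95% interval -0.30 to 0.24, adjusted p = 0.827, limma), and its sign turned without tetracycline replicate 1. CCND2 differed by 0.08 (adjusted p = 0.0561, limma), by -0.02 with TMM factors, and passed without MYCi975 replicate 3 (adjusted p = 0.00996).

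The response to MYCi975 was then compared between the lines, as the log2 fold change in PC3 minus that in P493-6. The lines got different doses, 8 and 6 µM, so line and dose cannot be told apart. Of 9 members, 5 were lower and 1, CDK6, was higher in this difference. Among all 11240 genes, 18.2% were lower and 18.1% higher, which is 2046 and 2029 genes, against 2352 lower and 1825 higher with TMM factors. CCNE2 differed the most, by -1.07 (SE 0.14, adjusted p = 8.29e-08), then CDC25A by -0.98 (SE 0.080, adjusted p = 5.93e-13) and CDK2 by -0.60 (SE 0.091, adjusted p = 1.46e-06, limma). CCND3 differed by -0.45 (SE 0.11, adjusted p = 0.00104), E2F1 by -0.33 (SE 0.094, adjusted p = 0.00490) and CDK6 by 0.50 (SE 0.071, adjusted p = 3.39e-07, limma). These 6 were called in each of the alternatives run.

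For 3 members no difference between the lines was detected. CDK4 gave -0.05 (95% interval -0.16 to 0.07), a narrow interval around 0. CCNE1 gave 0.17 (-0.20 to 0.55) and CCND1 -0.08 (-0.71 to 0.55), intervals that also hold large differences. CCND1 rested on 6 to 25 reads per library in P493-6 with DMSO or MYCi975, and CCNE1 on 43 to 67 reads per library in PC3. The sign for CCND1 turned with a smaller pseudocount.

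**Figure D4:**
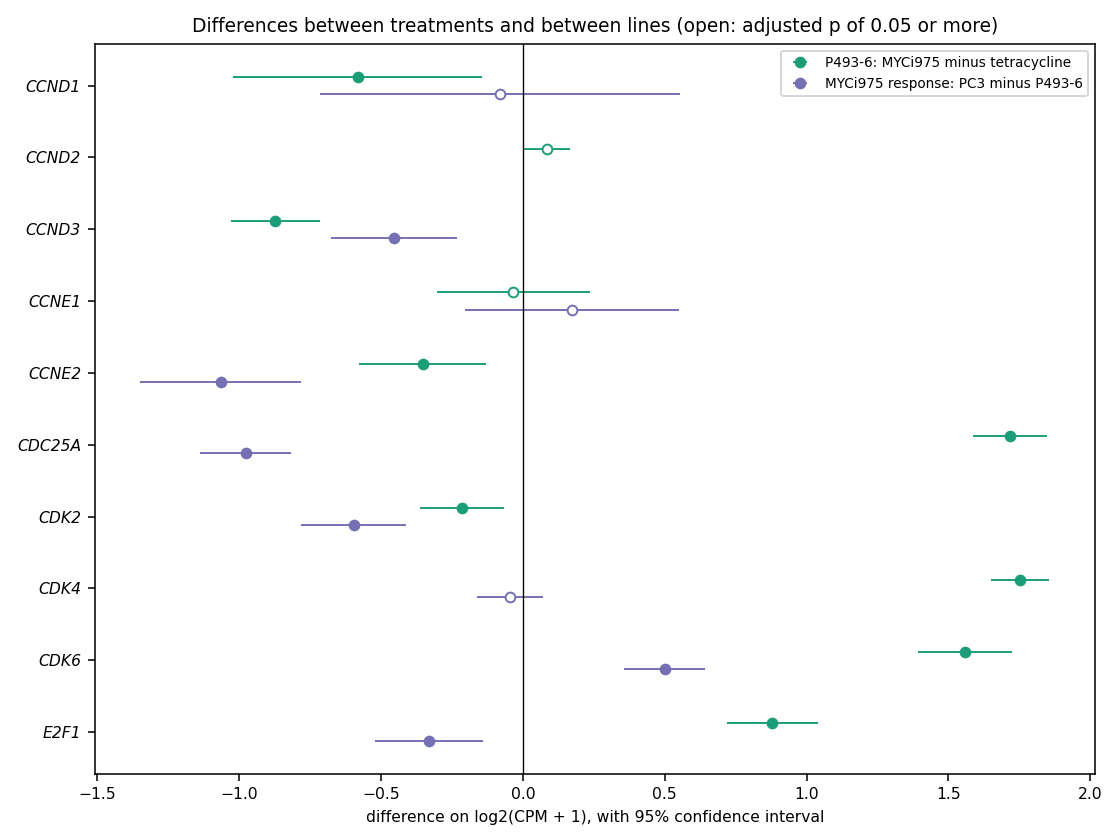
Differences on log2(CPM + 1) (horizontal axis) with 95% intervals for each member (rows): MYCi975 minus tetracycline in P493-6, and the MYCi975 response in PC3 minus that in P493-6. Filled points passed an adjusted p of 0.05. CDK4, CDC25A, CDK6 and E2F1 lie right of 0 in the first difference, and only CDK6 is called right of 0 in the second.

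Between genes, levels were set side by side in CPM per kilobase of the longest coding sequence, since the library kit captures exons. In PC3 with DMSO, CCND1 came first at 1882 ± 57.5 CPM per kilobase (SD, n = 3), followed by CDK4 at 170.7 ± 3.33. CDK2 at 78.8 ± 4.45 and CDK6 at 77.9 ± 4.15 did not differ beyond their spread. CDC25A (42.3 ± 1.37), E2F1 (38.8 ± 1.66) and CCND3 (36.4 ± 0.431) came next, then CCNE2 (29.3 ± 1.33), with CCNE1 last at 3.22 ± 0.273.

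In P493-6 with DMSO the level of CCND2 came first, at 528.3 ± 23.4 CPM per kilobase of coding sequence, and CDK4 was second at 195.1 ± 4.75. CDK6 (79.0 ± 2.48), CDC25A (60.6 ± 1.57), CDK2 (47.3 ± 4.98), CCND3 (39.0 ± 2.56) and E2F1 (32.3 ± 1.46) followed. CCNE2 (13.7 ± 1.38) and CCNE1 (8.46 ± 0.970) were low, and CCND1 was last at 1.55 ± 0.703. With tetracycline CDK4 at 54.1 ± 2.18 and CCND3 at 54.1 ± 1.41, next after CCND2, could not be ordered, while per kilobase of all merged exons CDK4 (23.7 ± 0.955) lay above CCND3 (12.02 ± 0.314). The order depends on the length used: per kilobase of all merged exons, CDK4 (85.4 ± 2.08) was above CCND2 (70.7 ± 3.13) in P493-6 with DMSO. CDK6, with 978 coding bases in 11729 bases of merged exons, moved from rank 3 to rank 7 there and from rank 4 to rank 8 in PC3. Per kilobase of merged exons, CCNE1 (5.01 ± 0.574) and CCNE2 (4.85 ± 0.489) could not be ordered in P493-6 with DMSO. With MYCi975 CCNE1 (3.74 ± 0.101) lay above CCNE2 (2.92 ± 0.102) in P493-6 on that scale.

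Several members overlap other annotated genes: CCND1 overlaps LTO1, CCND2 overlaps CCND2-AS1, CCNE2 overlaps INTS8, CDK2 overlaps PMEL and CDK4 overlaps TSPAN31, all on the opposite strand. CCND3 overlaps AL513008.1 and CDK6 overlaps AC002454.1, also on the opposite strand. The kit keeps the strand, but the counting setting is not given in the sources used here, so reads of such pairs may not be separated. CCND2 also overlaps a gene model on its own strand, AC008012.1.

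The other genes of the pathway were taken from 4 lists, and each list is described by its counts beside the shares of all genes. Of all genes, 30.1% fell and 29% rose in PC3, and 18% fell and 10.6% rose in P493-6 with MYCi975. With tetracycline 41.9% of all genes fell and 36.2% rose. The S phase entry genes known as E2F targets fell in 9 of 9 in PC3 with MYCi975 (median log2 fold change -1.01). PCNA, the sliding clamp of DNA polymerases, gave -1.29, ORC1, an origin recognition subunit, -1.24, the thymidine kinase TK1 -1.21 and the origin licensing factor CDT1 -1.096. In P493-6 with MYCi975, 8 of 9 fell (median -0.32), led by CDC6, which loads the replicative helicase, at -0.52. PCNA gave -0.50, the helicase subunit MCM3 -0.34 and CCNA2, the cyclin of S phase and G2, -0.33. In this comparison 6 rather than 8 fell with TMM factors, without trend and robust variance, or without DMSO replicate 2. Without DMSO replicate 3 or MYCi975 replicate 3, 7 fell. With tetracycline 8 fell and 1 rose (median -1.085): CDC6 gave -1.85, the transcription factor MYBL2 -1.30, PCNA -1.26 and MCM3 -1.20, while TK1 rose by 0.35. TK1 was named after its value was seen.

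In P493-6 with MYCi975 these 8 genes passed and E2F1 did not (log2 -0.10). The difference between E2F1 and the list was not tested.

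The 7 CDK inhibitors moved in both directions. In PC3, 4 rose and 2 fell (median 0.55), against 29% and 30.1% of all genes. CDKN1A, or p21, which inhibits CDK2 complexes, went from 8.04, 7.20 and 5.24 CPM to 24.8, 26.5 and 21.9 CPM (log2 1.71, SE 0.10, adjusted p = 2.63e-23, limma). CDKN2B, or p15, an inhibitor of CDK4 and CDK6, went from 92.7, 96.7 and 99.7 CPM to 290.8, 291.6 and 310.0 CPM (log2 1.62, SE 0.038, adjusted p = 2.78e-59, limma). No treated library overlapped with DMSO for either gene. CDKN2A rose by 0.67, and CDKN2C, or p18, which also inhibits CDK4 and CDK6, fell by 1.61 on the log2 scale.

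Of 6 inhibitors listed in P493-6, none passed with MYCi975 (limma), against 10.6% of all genes higher and 18% lower. CDKN1C had the smallest adjusted p (log2 0.46, adjusted p = 0.0589, limma). At an unadjusted p below 0.05, 2 of the 6 were higher and 0 lower. With TMM factors 2 were called higher, and 1 was without trend and robust variance or without MYCi975 replicate 1. With tetracycline 4 rose and 1 fell (median 0.83), against 36.2% and 41.9% of all genes. CDKN2D, or p19, rose from 3.59, 3.85 and 4.30 CPM to 21.0, 20.3 and 20.7 CPM (log2 2.15, SE 0.13, adjusted p = 2.41e-18, limma). CDKN1B, or p27, rose by 1.13, CDKN2C by 1.11 and CDKN1A by 0.56 on the log2 scale. CDKN1B and CDKN2C stood at only 1.26 to 3.03 CPM with DMSO, and 2 inhibitors rather than 4 were called higher among genes with a mean of at least 5 CPM. CDKN2A, with 9.40, 9.42 and 9.92 CPM and then 7.001, 6.37 and 5.56 CPM, was the inhibitor that fell, and is named after its value was seen.

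**Figure D5:**
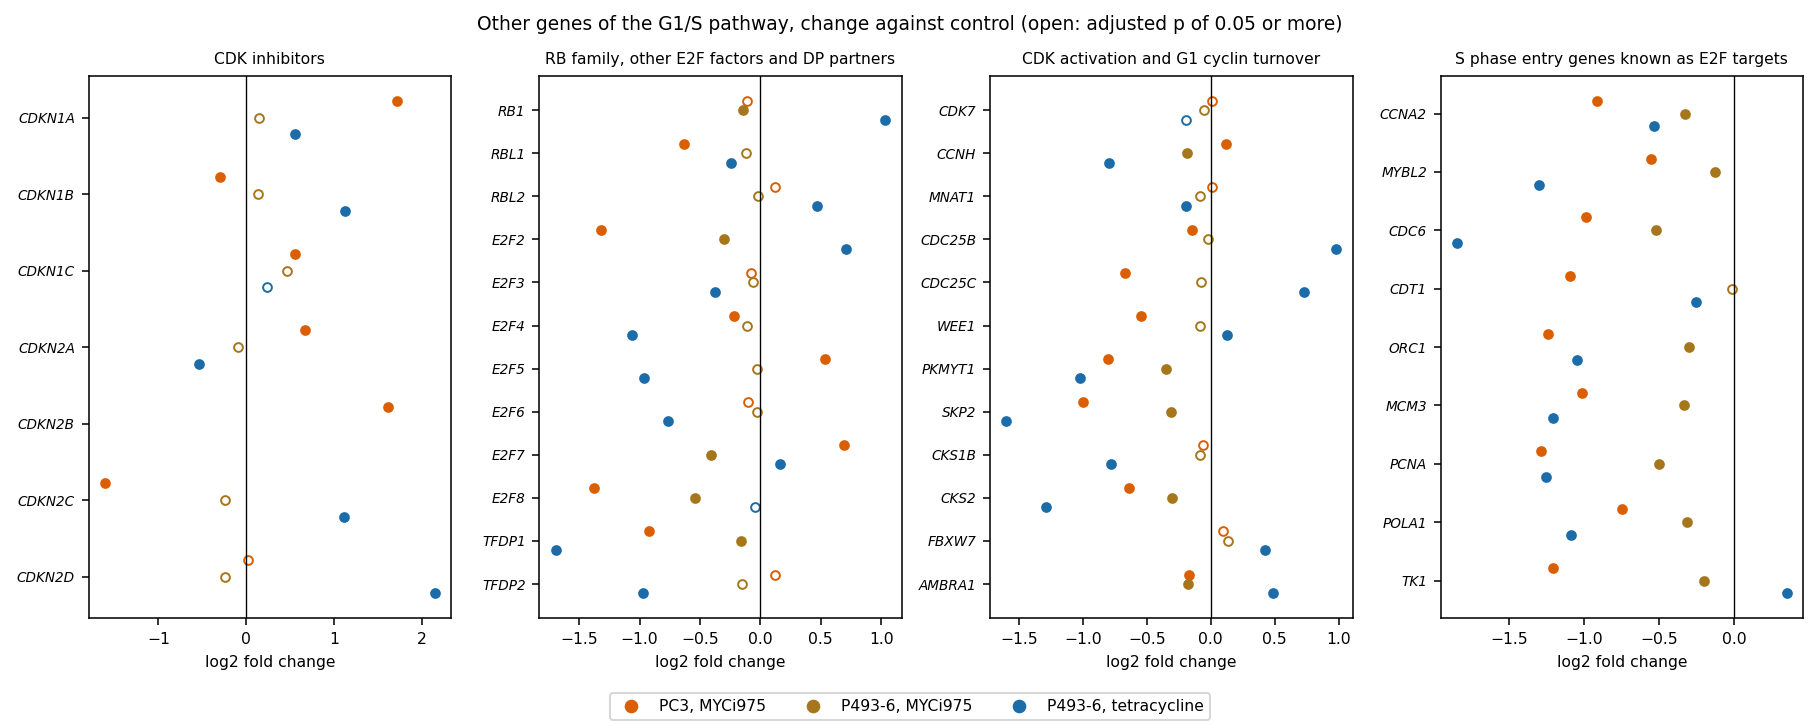
Log2 fold change against DMSO (horizontal axes) of the other pathway genes in 4 lists, for MYCi975 in each line and for tetracycline in P493-6. Filled points passed an adjusted p of 0.05. The S phase entry genes lie left of 0 in all 3 comparisons except TK1 with tetracycline (0.35), while CDK inhibitors lie on both sides.

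Among RB, its relatives, the other E2F factors and their DP partners, 2 of 12 rose and 5 fell in PC3 (median -0.10). Of all genes, 29% rose and 30.1% fell there. E2F8 gave -1.38, E2F2 -1.32, TFDP1, a DP partner of E2F1, -0.92 and E2F7 0.69. In P493-6 with MYCi975 none rose and 5 fell (median -0.13), against 10.6% and 18% of all genes. E2F8 stood at -0.54, E2F7 at -0.41, E2F2 at -0.30 and TFDP1 at -0.16. Without trend and robust variance 3 rather than 5 fell there. With tetracycline 4 rose and 7 fell (median -0.31), against 36.2% and 41.9% of all genes. TFDP1 fell from 379.4, 398.9 and 387.7 CPM to 120.1, 119.7 and 118.0 CPM (log2 -1.70, SE 0.043, adjusted p = 5.24e-31, limma). RB1 went the other way, from 255.5, 236.6 and 248.5 CPM to 512.1, 506.9 and 501.1 CPM (log2 1.03, SE 0.040, adjusted p = 1.42e-24, limma). E2F4 gave -1.06 and TFDP2 -0.97. Besides RB1, the genes that rose were E2F2 (0.71), RBL2 (0.47) and E2F7 (0.16), named after their values were seen.

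Among regulators of CDK activation and G1 cyclin turnover, 7 of 12 fell and 1 rose in PC3, 5 fell in P493-6 with MYCi975, and 6 fell and 5 rose with tetracycline. Of all genes, 30.1% fell and 29% rose in PC3, 18% fell and 10.6% rose in P493-6 with MYCi975. The shares with tetracycline were 41.9% and 36.2%. The medians of the list were -0.16, -0.09 and -0.19. The gene that rose in PC3, named for this reason, was CCNH, the cyclin of the CDK-activating kinase (log2 0.12, adjusted p = 0.0463, limma), and it no longer passed with DESeq2, without trend and robust variance, or when DMSO replicate 2 or 3 or MYCi975 replicate 1 or 2 was left out. SKP2, which directs p27 to degradation, CKS2, a small CDK subunit, and PKMYT1, an inhibitory CDK kinase, were called lower in all 3 comparisons. SKP2 gave -0.999 in PC3, -0.31 in P493-6 with MYCi975 and -1.60 with tetracycline. CKS2 gave -0.64, -0.31 and -1.29, and PKMYT1 gave -0.81, -0.35 and -1.02. CDC25C, a phosphatase of mitotic entry, fell by 0.67 on the log2 scale in PC3. CCNH fell by 0.19 in P493-6 with MYCi975 (adjusted p = 0.0476, limma), a call lost with TMM factors, with the replicate block, without trend and robust variance, and without DMSO replicate 1 or 3 or MYCi975 replicate 1 or 3. CDC25B, a relative of CDC25A, rose by 0.98 with tetracycline, against the 2.12 fall of CDC25A. In P493-6 with MYCi975 only 3 of the 12, SKP2, CKS2 and PKMYT1, fell without DMSO replicate 1, without MYCi975 replicate 1, with TMM factors, with the replicate block or without trend and robust variance. With TMM factors 1 of the 12, FBXW7, was also called higher, and is named for this reason.

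For 3 members the genes with the most similar changes were sought by Euclidean distance over the 3 log2 fold changes against DMSO, among genes with a mean of at least 5 CPM in every group. Nearest to CDK4 of 8245 genes were PTRH2 (distance 0.0276), HEATR1 (0.0765) and TEX2 (0.0792), with tetracycline changes of -1.82, -1.76 and -1.84. Nearest to E2F1 were NOL9 (0.0415), COPS7B (0.0452) and ELAVL1 (0.0597), with PC3 changes of -0.44, -0.41 and -0.49. Nearest to CCNE1 of 8246 genes, CCNE1 itself not reaching 5 CPM in PC3, were MTERF (0.0489), EIF4E2 (0.067) and CUL3 (0.0754). The distances are descriptions over 3 values, 2 of which share their DMSO libraries.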

How the data were processed

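RNA was captured with an exon capture kit that keeps the strand, per the labels' protocols. The submitters' processing notes name STAR, HTSeq, edgeR and the build hg38. Tool versions, annotation and counting options were not given in the sources used here. Per gene and library, the authors deposited CPM in 3 tables, with their log2 fold changes and p-values. The control columns of both P493-6 tables were identical. CPM came out as whole reads (within 0.001 reads) for 100.0% of values, which gave depths of 8162582 to 15926008 reads, so 1 CPM is 8.16 to 15.93 reads.

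Libraries were grouped by the labels, 3 per group. Log2(CPM + 1) was fitted with limma 3.58.1 (trend and robust) in R 4.3.3, within each table against DMSO, over the 9 P493-6 libraries for MYCi975 against tetracycline, and over 12 libraries with line, treatment and their interaction. P-values were adjusted over all genes, and the threshold was 0.05, two-sided. Members and gene lists were chosen with earlier results of these data known, and 1 planned gene of the S phase entry list is not reported here. Named genes were all members, MYC, from each list and comparison with DMSO up to 4 called genes ranked by absolute change (where none was called, the 1 of lowest p), and the 3 nearest genes of CCNE1, CDK4 and E2F1. Positions and lengths are from GENCODE v29.

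Replicate libraries correlated at r = 0.9938 to 0.9967 over genes and differed by more than counting error (chi-square per gene 2.04 to 5.92). The fits were tested on simulated counts with 200 genes changed, 50 at each size, and a dispersion of 0.005. Far more genes were called in the data, with 30.1% lower and 29% higher in PC3. The shares recovered and the false calls below therefore hold for the simulated setting and may differ in the data. For a simulated log2 change of 0.5, the share recovered was 84% in PC3 (13751 genes), 68% in P493-6 with MYCi975 (12998), 78% with tetracycline (13703), 60% between MYCi975 and tetracycline (12860) and 30% between the lines (11240). In the same order, 9, 9, 10, 5 and 4 false calls were made. For a change of 1 the share recovered was 88% between the lines and 98% to 100% elsewhere, and for 0.25 it was 2% to 22%. Alternatives were other pseudocounts, a minimum of 5 CPM, TMM factors (computed on CPM), edgeR 4.0.16 and DESeq2 1.42.0 on the recovered reads of PC3, a replicate block, limma without trend and robust, and leaving out each library.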

Additional observations from a re-analysis of the deposited data

Results flagged for a closer look

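For 6 of the 9 members in both lines, the response to MYCi975 differed between PC3 and P493-6 by the test of the difference itself (limma, adjusted over all 11240 genes). The difference, as the log2 fold change in PC3 minus that in P493-6, was -0.45 for CCND3, -1.07 for CCNE2, -0.60 for CDK2, -0.98 for CDC25A, -0.33 for E2F1 and 0.50 for CDK6. In each case the estimate had the same sign in both lines and was larger in PC3, although E2F1 did not pass in P493-6 (adjusted p = 0.329, limma). The dose differed too (8 against 6 µM), as did the depth of the libraries, and their part in these differences was not tested.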

How the results depend on the processing

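Of 674 member values recomputed under alternatives, 646 kept their direction and their side of the threshold. Of 213 counts of members or genes, 210 stayed within 1.5 times. The exceptions were in P493-6 with MYCi975: 2055 genes were called by limma without trend and robust, against 3713, and leaving out 1 library gave 3 to 5 members called lower. In PC3, edgeR's quasi-likelihood test called 8060 genes and DESeq2 6966, against 8137. These count tests were not run for P493-6. All its values came out as whole reads, but a separate check did not accept this for 3 of its columns, which held few low values. Depths and read numbers given for P493-6 rest on the recovery alone.

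Signs turned only for values that did not pass. CDK2 with tetracycline ranged from -0.047 to 0.099 over fits without 1 library, below 0 without DMSO replicate 3 or tetracycline replicate 1. In the MYCi975 against tetracycline contrast, CCND2 was -0.021 with TMM factors, and CCNE1 ranged from -0.138 to 0.081, above 0 without tetracycline replicate 1. CCND1 between the lines was 0.217 with a pseudocount of 0.1, 0.038 with 0.5, and -0.276 to 0.096 without 1 library, above 0 without P493-6 DMSO replicate 3 or MYCi975 replicate 2. The ratio of CCNE2 to CCNE1 with tetracycline was 0.938 to 1.14 times DMSO without 1 library, lowest without tetracycline replicate 3, against 1.04 (leaving libraries out of the ratios was chosen after seeing the data). The cause was not tested.

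Of 284 list counts, 266 stayed within 1.5 times. Same-numbered libraries did not deviate together (correlations -0.112 to 0.0559). With the replicate block 8220 genes were called in PC3, 3274 in P493-6 with MYCi975, 10655 with tetracycline, 9761 between MYCi975 and tetracycline and 3828 between the lines, and the members' counts were unchanged. In the list of CDK activation and turnover, 3 rather than 5 genes fell with the block in P493-6 with MYCi975. Depth limits the precision for CCND1 in P493-6, with 6 to 25 reads per library.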
